A study of Caenorhabditis elegans with 32 samples.

Results

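Small RNAs were compared between gonads of untreated pptr-1 mutants and untreated wild type in Caenorhabditis elegans. The comparison used 6 of the 32 libraries of the study, 3 of each genotype, chosen by their labels. Wild type was strain SX1263, with the transgene Pmex-5::gfp::h2b::tbb-2 inserted on chromosome II as mjIs134, in which the germline promoter of mex-5 drives a green fluorescent histone. The mutant was strain BFF39, which carries pptr-1(tm3103) together with the same transgene. All worms were young adults kept at 20 °C on E. coli OP-50, RNA was taken from dissected gonads with TRIZOL, and the libraries were made with the NEBNext small RNA kit. Neither genotype had been exposed to double-stranded RNA against gfp. Each genotype is a single strain, and the labels do not say whether libraries came from separate cultures, so p-values measure only the spread between libraries. That spread, and the filter for testing, were taken from these 6 libraries together with the F6 libraries named next. Other libraries were used where stated: 3 wild-type and 2 pptr-1 libraries of the F6 generation after exposure to double-stranded RNA against gfp, with the same extraction, and 3 libraries each of wild type and long-term meg-3(tm4259);meg-4(ax2026) mutants, extracted with a column kit.

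PPTR-1 is a regulatory subunit of the protein phosphatase PP2A. In embryos it keeps P granules, the RNA-rich germ granules of the worm, assembled and sorted to the germline, and MEG-3 and MEG-4 are granule scaffold proteins on which that phosphatase acts. Germ granules hold much of the machinery that makes and uses small RNAs. Most small RNAs of the adult gonad are short antisense products of RNA-dependent RNA polymerases, loaded on Argonaute proteins, which silence or license the gene they match and can pass to progeny. A value here is therefore the number of small RNA reads assigned to a gene, not the level of its transcript. Levels are given in CPM, the reads assigned to a feature per 1e+06 reads assigned to any feature of that library. Whether the counting used the strand, and how it treated reads that match several places, is not given in the sources used here. Counts of near-identical copies, of overlapping genes and of antisense pairs are for this reason uncertain.

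The wild-type libraries held 8504205, 12663545 and 9590517 feature counts (replicates 1, 4 and 5) and the mutant libraries 10563960, 10269978 and 6451205 (replicates 1, 5 and 7). The shallowest, mutant replicate 7, reaches 3 counts at 0.465 CPM. Reads that did not align made up 26.6% to 29.4% of the wild-type reads and 22.6% to 26.5% of the mutant reads, so the genotypes did not overlap in this share, and its part in the results was not tested. The first principal component of all 11 libraries with this extraction took 38.04% of the variance and placed each mutant library on one side and each wild-type library on the other. In the first pair of components mutant replicate 5 lay farther from the other mutant libraries than they did from each other. Correlations of log2 CPM between mutant replicates were 0.961 (1 and 5), 0.972 (1 and 7) and 0.973 (5 and 7). Mutant replicate 1 stood apart in certain gene groups. It was the lowest of the 6 libraries at 36 of 38 germline and oocyte genes, against 35.2% of all 10873 tested features. For several results that rest on this library, values without it are given too.

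The counts over pptr-1 itself were examined first. The gene lies on chromosome V from 16357521 to 16367574 (WBcel235). Small RNAs at pptr-1 stood at 36.2, 38.6 and 52.1 CPM in wild type and at 22.3, 20.0 and 17.2 CPM in the mutants. All mutant libraries were below all wild-type libraries, and the log2 fold change of -0.99 ± 0.17 (SE) passed the test (adjusted p = 0.00528). The counts cover the whole gene and do not show the deletion. Adjusted p-values are from edgeR's quasi-likelihood test with Benjamini-Hochberg adjustment over all tested features unless another tool is named, and a feature was called at an adjusted p under 0.05. A call stands for higher or lower in the mutant.

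Of 10873 features tested, 705 were called in untreated pptr-1 mutants, which is 6.48%. Small RNAs were higher at 450 features (4.14%) and lower at 255 (2.35%), and the median log2 fold change over all tested features was 0.02. In 690 of the called features the genotypes did not overlap, as was the case in 25.4% of all tested features. Changes were at least 2-fold at 331 of the higher and 201 of the lower features, and at least 8-fold (3 on the log2 scale) at 44 and 16. By level, 49 of the 450 higher features had a wild-type mean under 1 CPM, where a feature could be tested only through libraries with more counts and a loss could hardly be called. Of 1525 features with a wild-type mean of 100 to 1000 CPM, 95 were higher and 121 lower. Leaving out wild-type replicate 4 reduced the calls to 425 (240 higher, 185 lower). The count of higher features also fell by more than 1.5 times without wild-type replicate 5 (257), wild-type replicate 1 (277) or mutant replicate 5 (286).

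**Figure D1:**
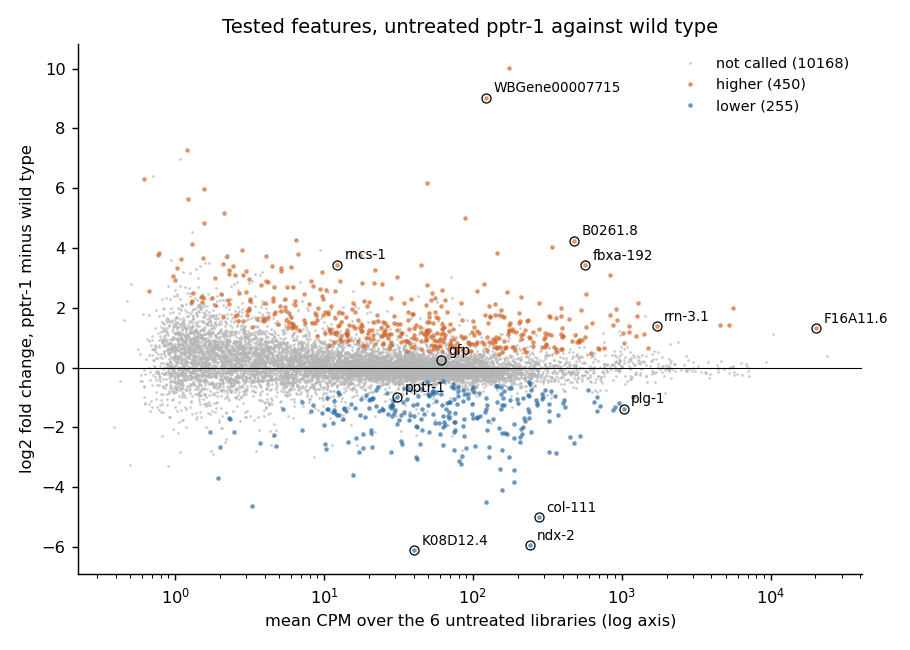
Log2 fold change of small RNA counts (pptr-1 minus wild type, untreated) against the mean CPM of the 6 libraries on a log axis, with 1 point for each of 10873 tested features. The 450 features called higher are orange, the 255 called lower are blue, and K08D12.4 (-6.10) and ndx-2 (-5.95) lie lowest among the named features.

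Several of the largest losses fell on genes that in wild type carried over 100 CPM. Small RNAs at ndx-2, which encodes a Nudix hydrolase, stood at 548, 458 and 414 CPM in wild type and at 5.68, 10.4 and 5.58 CPM in the mutants. The lowest wild-type library was far above the highest mutant library, with a log2 fold change of -5.95 ± 0.28 (SE, adjusted p = 3.04e-07). At col-111, a cuticle collagen gene, the wild-type libraries gave 662, 504 and 442 CPM and the mutant libraries 16.6, 6.33 and 25.1 CPM. The genotypes again did not overlap, and the log2 fold change was -5.002 ± 0.44 (SE, adjusted p = 6.07e-05).

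The uncharacterised gene K08D12.4 had the largest fold decrease of the named features, from 109, 50.8 and 78.4 CPM to 1.51, 0.487 and 1.24 CPM (log2 fold change -6.10 ± 0.96, SE). The mutant values rest on 16, 5 and 8 reads. At pry-1, which encodes the axin scaffold of Wnt signalling, small RNAs went from 143, 179 and 129 CPM to 18.1, 9.93 and 17.4 CPM, all mutant libraries lower, with a log2 fold change of -3.22 ± 0.27 (SE). At cdk-14, a gene of the cyclin-dependent kinase family, the wild-type values of 139, 318 and 435 CPM spread widely, and the mutant values of 14.4, 19.7 and 14.3 CPM did not. At prx-11, named for a peroxisome protein, wild-type replicate 1 gave 509 CPM and the other wild-type libraries 80.4 and 120 CPM, while the mutants stayed at 8.08 to 11.2 CPM. The fall at prx-11 passed the test in each alternative run, those without any 1 library included.

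Among the other large decreases, Y69A2AR.31 went from 314, 414 and 339 CPM to 18.8, 23.5 and 29.3 CPM (log2 fold change -3.83 ± 0.25, SE, adjusted p = 4.41e-06), which is a 14.9-fold lower mean. The values within each genotype were close. Further down, madf-9, which encodes a protein with a MADF domain, fell by 3.38 on the log2 scale, and F53G2.3 was at -3.604. C17H12.36, a snoRNA gene on chromosome IV, went from 249.9, 379 and 418 CPM to 12.8, 59.2 and 20.9 CPM (log2 fold change -3.43 ± 0.42, SE). The calls of Y71G12B.22 (-4.64) and C09G5.7 (-3.14) did not hold in every fit with a library left out. For Y71G12B.22 the call was lost without wild-type replicate 4 or 5 or any 1 mutant library (adjusted p up to 0.107), while the log2 fold change stayed between -4.91 and -4.31. Without wild-type replicate 1, at 326 CPM against 77.8 and 33.4 CPM in the other wild-type libraries, C09G5.7 was at -1.70 (adjusted p = 0.119). The C09G5.7 call was also lost without any 1 of the mutant libraries, with log2 fold changes of -3.25 to -3.01, and in a fit to the 6 untreated libraries alone (adjusted p = 0.0605).

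The largest gains were of 2 kinds: loci near 0 in wild type, and loci already targeted that gained more. A group of pseudogenes on chromosome V is of the first kind. Pseudogene WBGene00007715 had 0.588, 0.474 and 0.313 CPM in wild type and 0.663, 278 and 456 CPM in mutant replicates 1, 5 and 7. Mutant replicate 1 was thus at the wild-type level, and the log2 fold change of 9.03 ± 1.60 (SE, adjusted p = 0.0054) rests on the other mutant libraries. The nearby WBGene00007721 behaved the same way, with 0.470, 2.61 and 0.626 CPM in wild type and 2.93, 105 and 183 CPM in the mutants.

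B0261.8 is of the second kind. It stood at 68.8, 29.1 and 56.5 CPM in wild type and at 1199, 514 and 998 CPM in the mutants, a 17.6-fold higher mean with a log2 fold change of 4.24 ± 0.50 (SE, adjusted p = 0.000372). Every mutant library was above every wild-type library by a wide margin. Y43F8B.9 rose from 38.6, 43.2 and 38.8 CPM to 387, 955 and 559.7 CPM (log2 fold change 4.03 ± 0.43, SE). C16C8.20 rose from 22.5, 17.0 and 20.7 CPM to 269, 230.5 and 306 CPM (log2 fold change 3.83 ± 0.20, SE, adjusted p = 5.26e-07), with the smallest SE among the 12 largest gains. Its reads may be shared with gldi-6, whose gene it overlaps on the same strand.

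Smaller levels were involved at nas-32, which encodes an astacin metalloprotease, with 1.41, 4.19 and 1.56 CPM in wild type and 21.0, 52.3 and 23.4 CPM in the mutants (log2 fold change 3.76 ± 0.51, SE). The non-coding RNA rncs-1 forms a long hairpin known to hold back the RNA-cutting enzyme Dicer. Small RNAs at rncs-1 stood at 3.17, 1.74 and 1.67 CPM in wild type and at 26.9, 17.3 and 22.6 CPM in the mutants, without overlap (log2 fold change 3.45 ± 0.38, SE, adjusted p = 0.000235). F41C3.8 was at 6.47, 5.69 and 3.96 CPM in wild type and at 15.3, 248 and 248 CPM in the mutants, with mutant replicate 1 again the lowest mutant library. Several named gains lost their call when a library was left out, most of them with a fold change of similar size. W02A2.5 (log2 fold change 4.28) was at 3.23 without mutant replicate 1 (adjusted p = 0.0547), and the sperm chromatin gene spch-1 (3.75) was at 2.26 without mutant replicate 5 (adjusted p = 0.132). The spch-1 call was also lost when any 1 wild-type library was left out, at log2 fold changes of 3.34 to 4.03. The calls of pals-27 (3.81) and the pseudogene WBGene00268190 (3.92) were lost without wild-type replicate 4 (3.28 and 4.24) or mutant replicate 5 (3.21 and 2.80). Without wild-type replicate 5, pals-27 was at 5.95. In a fit to the 6 untreated libraries alone, spch-1 and pals-27 were not called (adjusted p = 0.0680 and 0.0540).

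**Figure D2:**
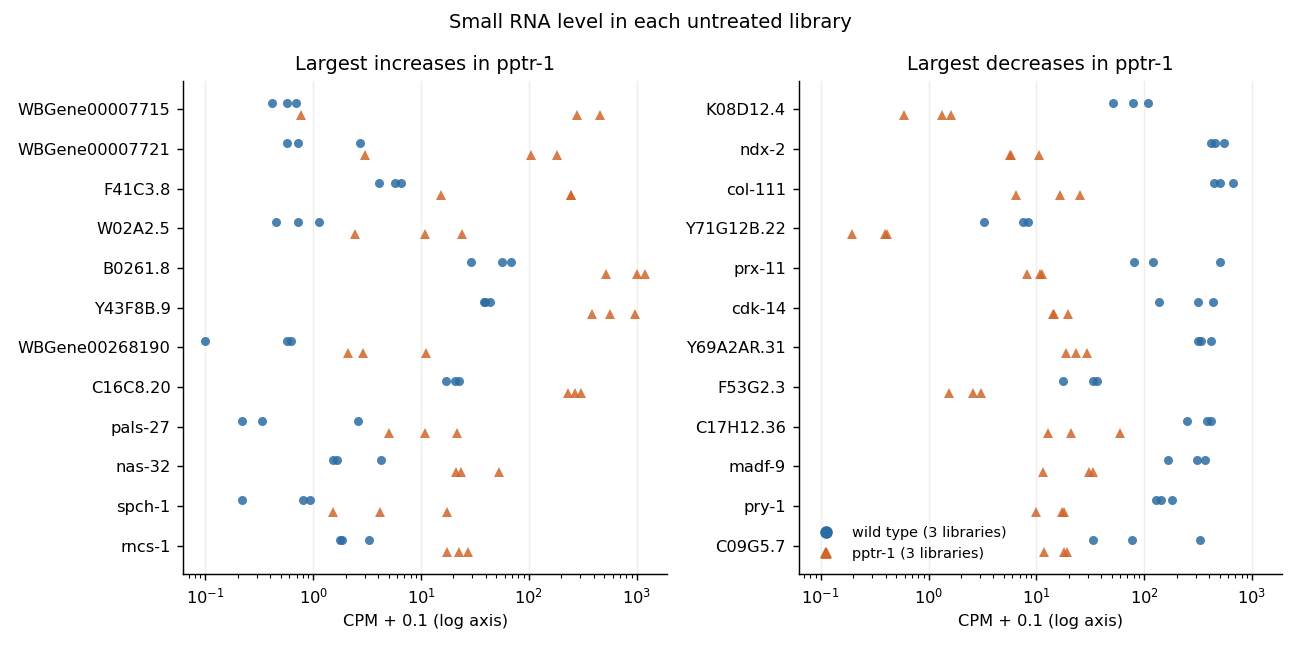
CPM (plus 0.1, log axis) in each of the 3 wild-type (blue circles) and 3 pptr-1 libraries (orange triangles) for the 12 named features with the largest increases and the 12 with the largest decreases. At WBGene00007715 and WBGene00007721 1 mutant triangle, replicate 1, lies beside the wild-type circles, while at ndx-2 and col-111 the groups are far apart.

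By abundance, the strongest gain was at F16A11.6, a short non-coding RNA gene on chromosome I from 9379946 to 9380095. It took 12519, 14508 and 9055 CPM in wild type and 27653, 35864 and 21834 CPM in the mutants. The genotypes did not overlap (log2 fold change 1.32 ± 0.27, SE, adjusted p = 0.0113), but a fit to the 6 untreated libraries alone gave an adjusted p of 0.0545. In the F6 wild-type libraries the level was 23007, 32260.1 and 23954 CPM, within the range of the untreated mutants. The gene overlaps 2 other genes on the opposite strand.

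F09A5.3 on chromosome X rose from 2455, 2454 and 2181 CPM to 7402, 9235 and 9976 CPM (log2 fold change 1.98 ± 0.39, SE), in a stretch where it overlaps 2 annotated genes on its own strand and 5 on the other. Also on chromosome X, the long non-coding RNA linc-22 rose from 1878, 2953 and 2866 CPM to 5049, 8724 and 5805 CPM. Its call was lost without any 1 wild-type library or without mutant replicate 5 (adjusted p 0.0642 to 0.0916). That of gid-2 (1.43) was lost without wild-type replicate 1 or 5 or mutant replicate 7 (adjusted p up to 0.0800).

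Among abundant targets that lost small RNAs, plg-1 encodes the mucin of the mating plug and carries a retrotransposon insertion in the standard laboratory strain. It stood at 1665, 1409 and 1462 CPM in wild type and at 626, 471 and 537 CPM in the mutants, a 2.78-fold lower mean (log2 fold change -1.38 ± 0.18, SE, adjusted p = 0.000859). F39F10.2 gave 1226, 1454 and 1369 CPM against 588, 534 and 562 CPM, and the values hardly varied within a genotype (log2 fold change -1.18 ± 0.15, SE). At cdh-12, a cadherin-family gene, levels went from 1343, 1347 and 1247 CPM to 574, 407 and 500.4 CPM. W03D8.7 fell by 1.43 on the log2 scale. At fbxa-218 (log2 fold change -0.999) the call was lost without wild-type replicate 1 or 4 or mutant replicate 5 or 7 (adjusted p up to 0.116).

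Few genes of the small RNA pathways themselves were called for the small RNAs that match them, though sums over several lists did not overlap between genotypes. For each list below, calls are to be read against 4.14% higher and 2.35% lower over all features. Of 23 germ granule genes tested, 0 were called either way by edgeR, and the median log2 fold change was -0.20. At an unadjusted p under 0.05 there were 0 higher and 3 lower, and DESeq2 called 1 lower, mip-2. The gene pgl-1, which encodes a core P granule protein, stood at 243, 228 and 279 CPM in wild type and at 198, 229.9 and 234.5 CPM in the mutants, and the groups overlapped. Mutant replicate 1 was the lowest of the 6 libraries at 20 of the 23 genes, and the median without it was -0.07. Of 6 genes of PP2A subunits, pptr-1 was lower and the others were not called, among them its paralog pptr-2 (log2 fold change -0.06 ± 0.20, SE).

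Of 16 Argonaute genes tested, 0 were called by edgeR (median -0.21, and -0.18 without mutant replicate 1), 1 was higher and 3 lower at an unadjusted p under 0.05, and DESeq2 called 1 lower, csr-1. Summed over the 20 matched Argonaute genes, small RNAs were at 3121 to 4026 CPM in wild type and 2321 to 3085 CPM in the mutants, without overlap. All mutant libraries were below all wild-type libraries at 4 of the 16 and above at 0. The heritable silencing factor hrde-1 stood at 766, 790.3 and 996 CPM in wild type and at 667, 735 and 813 CPM in the mutants. The licensing Argonaute csr-1 stood at 520.0, 477 and 771 CPM in wild type and at 246, 409.7 and 411 CPM in the mutants, without overlap, with a log2 fold change of -0.66 ± 0.21 (SE) that missed the threshold (adjusted p = 0.0962). Of 22 genes of nuclear RNA interference and chromatin, 0 were called by edgeR or DESeq2 (median -0.13), with 0 higher and 2 lower at an unadjusted p under 0.05. Summed over the 22 genes, small RNAs were at 3780 to 4150 CPM in wild type and 3070 to 3597 CPM in the mutants, without overlap. All mutant libraries were below all wild-type libraries at 7 of the 22 and above at 0. Mutant replicate 1 was the lowest library at 18 of these 22 genes. Without it 0 were called either way, and with any 1 of the 6 libraries left out the median was -0.15 to -0.08.

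The gene rde-11, whose product helps to amplify secondary small RNAs, was the clearest change among 29 genes of RNA polymerases, Dicer and mutator proteins. It stood at 382, 412 and 387 CPM in wild type and at 866, 646 and 712 CPM in the mutants. All mutant libraries were higher, with a log2 fold change of 1.01 ± 0.17 (SE, adjusted p = 0.00457), and the call was kept without each library. Summed over the 29 genes, small RNAs were at 9041 to 10225 CPM in wild type and 9550 to 10249 CPM in the mutants, which overlapped. All mutant libraries were below all wild-type libraries at 7 of the 29 and above at 1. In the same list, the call of rde-12 (-0.48 ± 0.12) was lost without any 1 wild-type library or mutant replicate 5 (adjusted p up to 0.122), and that of rde-2 (-0.45 ± 0.12) without any 1 of the 6 libraries (adjusted p up to 0.127). Summed over the 8 matched genes of systemic RNA interference, small RNAs were at 766 to 839 CPM in wild type and 972 to 1097 CPM in the mutants. Among the 7 tested, sid-1, which encodes the channel that imports double-stranded RNA, was called. It stood at 607, 536 and 597 CPM in wild type and at 876, 867 and 762 CPM in the mutants, without overlap (log2 fold change 0.61 ± 0.16, SE, adjusted p = 0.0374). Without any 1 library except mutant replicate 7 the sid-1 call was lost (adjusted p up to 0.169), and with the 6 untreated libraries alone none of sid-1, rde-12 and rde-2 was called (adjusted p = 0.0978, 0.0901 and 0.0832).

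The gfp transgene differed little before any exposure to double-stranded RNA. It stood at 53.9, 52.0 and 66.2 CPM in wild type and at 46.3, 69.7 and 78.7 CPM in the mutants, and the groups overlapped (log2 fold change 0.25 ± 0.39, SE, adjusted p = 0.781). Of the 5 features matched to parts of the transgene, namely gfp, mex-5, tbb-2, WBGene00001932 and WBGene00001940, 0 were called in the untreated comparison. At tbb-2 the mutants gave 69.5, 208 and 203 CPM against 150.3, 163 and 166 CPM in wild type, with mutant replicate 1 below and the other mutants above.

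Of 38 germline and oocyte genes tested, 0 were called by edgeR, with 1 higher and 4 lower at an unadjusted p under 0.05, and DESeq2 called 1 higher, puf-5. The median was -0.02, below 0 under each scaling, and 0.13 without mutant replicate 1, when 1 gene was called higher. Without mutant replicate 5, 1 was called lower. Of 65 histone genes tested, 4 were called higher and 0 lower, with a median of 0.42 that was positive under each scaling. Summed over the 80 matched histone genes, small RNAs were at 5846 to 7237 CPM in wild type and 6071 to 6564 CPM in the mutants. The sums thus overlapped. The H2B gene his-4 stood at 26.6, 29.1 and 29.5 CPM in wild type and at 59.7, 66.6 and 57.5 CPM in the mutants (log2 change 1.20 ± 0.15, SE, adjusted p = 0.000575). The other H2B gene called, his-41, rose from 19.5, 8.37 and 11.5 CPM to 48.6, 51.0 and 67.3 CPM. The calls of his-60 (0.62) and his-64 (0.52) were lost in several fits, for instance without wild-type replicate 4 (adjusted p = 0.124 and 0.201), and the number of histone calls was 2 without wild-type replicate 4 or 5 or with the 6 untreated libraries alone. Histone genes are near-identical copies, so their counts are uncertain.

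Ribosomal protein genes had a median of the opposite sign. Of 76 tested, 39 had all mutant libraries below all wild-type libraries, as did 13.0% of all features, 4 were called lower and 0 higher, and the median was -0.35, negative under each scaling. The gene rps-24 stood at 72.3, 63.96 and 60.2 CPM in wild type and at 33.3, 33.7 and 33.9 CPM in the mutants (log2 change -0.88 ± 0.21, SE, adjusted p = 0.027). The others called were rpl-18 (-0.69), rps-8 (-0.72) and rps-21 (-0.75). Each of these calls was lost in some fits with 1 library left out: 0 were called without wild-type replicate 1 or 4, 1 without mutant replicate 5, 2 without mutant replicate 7 and 5 without mutant replicate 1. That library was the lowest of the 6 at 49 of the 76 genes, and the median without it was -0.30.

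Marker genes of tissues outside the germline served as a check on the dissection, again through small RNAs and not transcripts. Of 7 intestine genes tested, the yolk protein genes vit-2 and vit-6 were called higher. The gene vit-2 stood at 4.70, 4.90 and 1.77 CPM in wild type and at 13.0, 14.9 and 15.5 CPM in the mutants (log2 change 1.99 ± 0.45, SE, adjusted p = 0.0195). The list summed to 8.45 to 27.2 CPM in wild type and to 42.4 to 61.5 CPM in the mutants, and its part in the other results was not tested. Wild-type replicate 5 was the lowest of the 6 libraries at 7 of the 7 genes, and the list's median log2 fold change was 1.16 with it and 0.69 without it. In the F6 comparison the median was 0.07, with 0 called by edgeR. Without wild-type replicate 5 or mutant replicate 7 neither gene was called (adjusted p 0.0532 to 0.0870), and without wild-type replicate 1 or mutant replicate 5 the call of vit-6 was lost, as it was in a fit to the 6 untreated libraries alone (adjusted p = 0.0552). Of 5 muscle and 7 somatic gonad genes tested, 0 were called by edgeR or DESeq2 (0 and 1 at an unadjusted p under 0.05), and of 12 neuron genes only egl-21, which encodes a neuropeptide-processing enzyme, was called (-2.14), a call lost without wild-type replicate 1 or 5 or any mutant library.

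Of 45 epidermis and cuticle genes tested out of 194 matched, 4 were called lower and 0 higher, all collagens. The most abundant of them was col-71, at 1125, 1020.5 and 913 CPM in wild type and 467, 247 and 335 CPM in the mutants (log2 change -1.44 ± 0.25, SE, adjusted p = 0.00435). The gene col-38 fell by 2.55 on the log2 scale. The call of col-162 (-2.22) was lost without wild-type replicate 1 or 4 or mutant replicate 5 or 7 (adjusted p up to 0.121). Of 14 sperm genes tested out of 77 matched, 0 were called by edgeR, with 2 higher and 1 lower at an unadjusted p under 0.05, and DESeq2 called 1 each way. The epidermis list summed to 3502 to 4090 CPM in wild type and to 2264 to 2688 CPM in the mutants, and its part in the other results was not tested.

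Counts by annotated type are given beside 4.14% higher and 2.35% lower over all features. Small RNAs rose at 67 of 595 pseudogenes tested (11.3%) and fell at 10 (1.68%). Of 53 long intergenic non-coding RNA genes, 14 were higher (26.4%) and 0 lower, with a median log2 fold change of 0.50. F39E9.10 rose from 617, 497 and 334 CPM to 1692, 1283 and 1118 CPM, the genotypes apart (log2 fold change 1.59). In the same group, linc-21 on chromosome IV rose from 51.9, 84.8 and 57.5 CPM to 162, 223 and 207 CPM (log2 fold change 1.68). The count of 14 fell to 6 without wild-type replicate 5 and to 9 without wild-type replicate 1 or 4 or mutant replicate 1 or 5. That of pseudogenes fell to 35 without wild-type replicate 4 or mutant replicate 5 and to 40 without wild-type replicate 1, and the 10 lower pseudogenes to 5, 5 and 4 without wild-type replicate 4, mutant replicate 5 or mutant replicate 7. With the 6 untreated libraries alone 44 pseudogenes were higher. In the F6 comparison 4 long intergenic genes were called higher and 0 lower, but the median was -0.03 and only 26 of 53 were positive.

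As shares of all feature counts, protein-coding genes took 79.5%, 78.7% and 79.8% in wild type and 73.7%, 75.1% and 76.5% in the mutants, which did not overlap. Non-coding RNA genes other than the named classes took 4.25%, 4.79% and 3.70% in wild type and 6.52%, 8.05% and 6.23% in the mutants. Without the 10 most abundant features of each library the difference of 2.68 percentage points was 0.533 and the genotypes overlapped (exact permutation p = 0.2). Ribosomal RNA took 0.153%, 0.240% and 0.225% in wild type and 0.654%, 0.474% and 0.435% in the mutants. For protein-coding genes, non-coding RNA genes and ribosomal RNA the exact two-sided permutation p was 0.1, the smallest that 3 against 3 libraries allow.

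Fewer reads were assigned in the mutants to features annotated as piRNAs, the germline small RNAs bound by the Argonaute PRG-1. With the strand setting not given, the counts do not show whether these reads are mature piRNAs or come from the other strand. The share of these features was 0.0897%, 0.113% and 0.104% in wild type and 0.0504%, 0.0656% and 0.0627% in the mutants, without overlap (exact two-sided permutation p = 0.1). Of 15363 piRNA features counted, 13428 had 0 counts in all 6 libraries and 91 could be tested. Among the 91 tested, 8 were lower and 0 higher, with a median log2 fold change of -0.63. WBGene00170296 stood at 109, 166 and 128 CPM in wild type and at 27.6, 36.5 and 52.7 CPM in the mutants (log2 change -1.72 ± 0.21, SE, adjusted p = 0.000453). At 21ur-5987 the wild-type libraries gave 48.8, 51.7 and 47.9 CPM and the mutant libraries 13.7, 17.3 and 6.36 CPM.

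In the F6 libraries the groups overlapped in this share, with 0.0626%, 0.0671% and 0.0777% in wild type and 0.0718% and 0.0777% in the mutants. WBGene00170296 stood there at 36.8, 32.9 and 28.7 CPM in wild type and at 37.4 and 41.1 CPM in the mutants, so the F6 wild type was within the range of the untreated mutants. The difference between the contrasts at this feature was -1.84 on the log2 scale and was not called (adjusted p = 0.246). The F6 median over the 91 features was -0.04. The 8 calls fell to 3 without wild-type replicate 4, to 4 without mutant replicate 1 and to 5 without wild-type replicate 1 or mutant replicate 7. Of 258 microRNA features, 187 had 0 counts in all 6 untreated libraries and 11 could be tested, and the same limit on the strand holds. Both of those called, cel-mir-8203 (log2 fold change 2.28) and cel-mir-5592-1 (1.06), overlap other genes on the opposite strand, and the second call was lost without wild-type replicate 1 or 5 or mutant replicate 5 or 7 (adjusted p up to 0.0816).

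**Figure D3:**
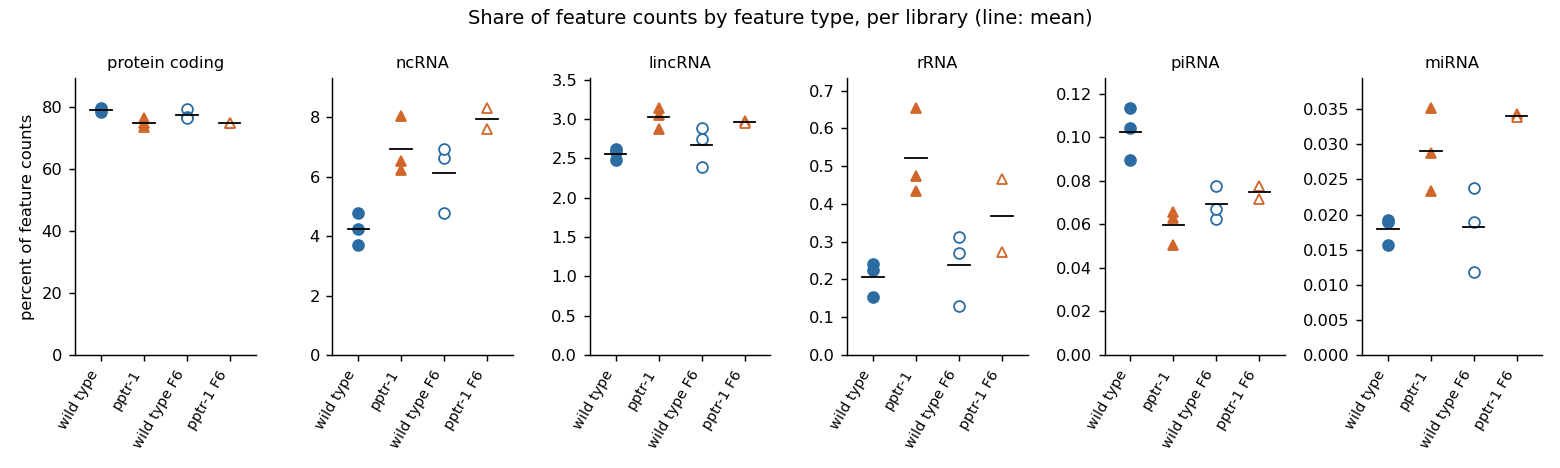
Percent of feature counts taken by 6 feature types in each untreated library (filled symbols) and each F6 library (open symbols), with lines at group means and axes starting at 0. Ribosomal RNA and non-coding RNA shares are higher in untreated pptr-1 than in untreated wild type, and the piRNA share of untreated wild type (0.0897% to 0.113%) lies above all other groups.

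Counts also varied between chromosomes. On chromosome X, whose genes are largely silent in the germline, 72 of 1172 tested features were higher (6.14%) and 5 lower (0.427%), with a median log2 fold change of 0.34. On chromosome V 107 of 1870 were higher and 36 lower. The chromosome X median was 0.30 and 0.26 under the other scalings, with 66 and 55 features higher and 7 and 12 lower. Without 1 library the X counts were 40 to 61 higher and 2 to 11 lower, and the count of higher features fell by more than 1.5 times without wild-type replicates 1 (40), 4 (44) or 5 (46) or mutant replicates 1 (44) or 5 (45). In the F6 comparison 80 features on chromosome X were called higher and 35 lower, with a median of 0.19. In the untreated comparison the count of higher features on chromosome V fell to 50 without wild-type replicate 4 and 57 without wild-type replicate 5. It was 61 without wild-type replicate 1 and 60 without mutant replicate 5. Around pptr-1, 29 features were tested within 200000 bases, of which 0 were higher and 2 lower, and 152 within 1000000 bases, of which 13 were higher and 7 lower, against 4.14% and 2.35% over all features. Among the higher ones were neighbouring groups of 5 (16918731 to 16930063) and 4 (16940958 to 16949709), mostly pseudogenes, which may share reads where they are copies.

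**Figure D4:**
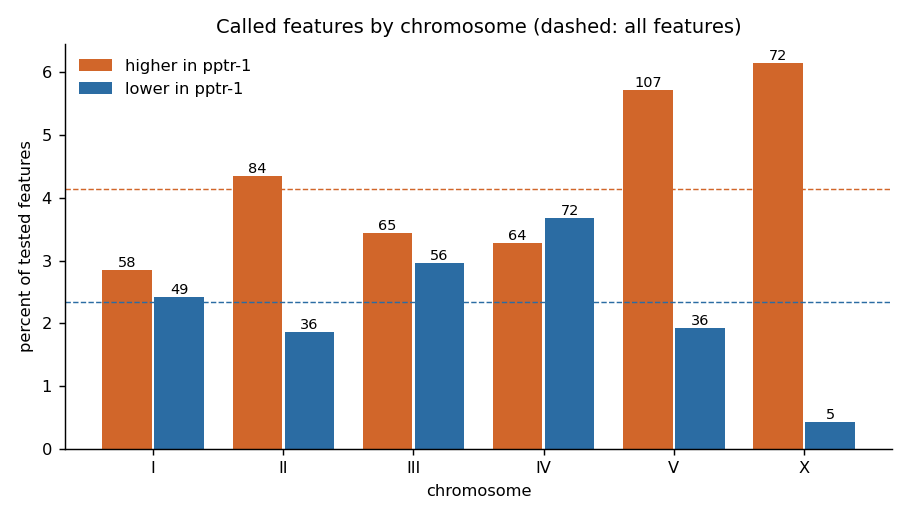
Percent of tested features called higher (orange) or lower (blue) in untreated pptr-1 on each chromosome, with the number of features above each bar and dashed lines at the percentages over all features (4.14% and 2.35%). Chromosome X has 72 higher and 5 lower features.

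Some of the higher features were neighbours. Runs of at least 3 called features in 1 direction, each within 10 kb of the next, numbered 12 for higher features and held 58 of the 450. For lower features there was 1 run, with 3 members. With a gap of 5 kb the numbers were 10 and 0. The runs described here were chosen after their values were seen, and neighbours in a run may share reads where they are copies of each other.

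One run lay on chromosome II from 1919888 to 1934507 and held bath-7, bath-2, F52C6.4, F52C6.3, F52C6.2 and 3 pseudogenes, with log2 fold changes of 0.53 to 3.04. The bath genes encode proteins with BTB and MATH domains, a family of adaptors for protein degradation. The largest of its members by level, pseudogene WBGene00018658, rose from 157, 191 and 217 CPM to 1163, 832 and 897 CPM (log2 fold change 2.46 ± 0.21, SE). A second run on chromosome II, from 2019654 to 2049175, held bath-1, bath-19, bath-24 and 2 pseudogenes. At bath-1 the levels were 115.2, 116 and 110.2 CPM in wild type and 265, 205 and 225 CPM in the mutants, without overlap. Over the whole family 9 of 30 bath genes tested were higher (30%) and 0 lower, against 4.14% and 2.35% over all features. The count of higher genes was 3 without wild-type replicate 4, 4 without wild-type replicate 5 and 6 without wild-type replicate 1. It was 7 without mutant replicate 1, when 1 gene was called lower, and 5 with the 6 untreated libraries alone.

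Another run, on chromosome II from 3444669 to 3454688, held 8 genes named C16C8 or, in 1 case, gldi-6, some of which overlap. All 8 were called higher in the F6 comparison as well. C16C8.14 stood at 7.64, 8.92 and 7.51 CPM in wild type and at 69.3, 80.7 and 95.2 CPM in the mutants (log2 fold change 3.42 ± 0.18, SE), and C16C8.21 rose from 199, 143 and 137 CPM to 612, 451 and 409.7 CPM. The mutant libraries were alike in this run, replicate 1 included.

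On chromosome V the run from 17637982 to 17656654 held fbxa-192, of the F-box family, and 3 pseudogenes. Small RNAs at fbxa-192 stood at 90.0, 101 and 114 CPM in wild type and at 941, 1122 and 1046 CPM in the mutants, a 10.2-fold higher mean with the joint smallest adjusted p of the comparison (log2 fold change 3.43 ± 0.15, SE, adjusted p = 3.04e-07). The pseudogene next to it, WBGene00010295, rose from 173, 191 and 181 CPM to 1104, 1562 and 1769 CPM. Neither was called in the long-term meg mutants (log2 fold changes of -0.42 and -0.13).

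The chromosome V run from 15025731 to 15056291 holds the pseudogenes near 0 in wild type. Between WBGene00007721 and WBGene00007715 lies WBGene00014681, with 0.118, 0.237 and 0.626 CPM in wild type (1, 3 and 6 reads) and 0.568, 378 and 674 CPM in the mutants. At melo-3, in the same stretch, wild type had 0, 0 and 1 reads and the mutants 0, 46 and 31 reads. C25D7.5, at the end of the run, stood at 21.2, 17.5 and 9.28 CPM in wild type and at 11.8, 111.2 and 145 CPM in the mutants. At these 5 genes mutant replicate 1 was at or near the wild-type values, and mutant replicates 5 and 7 were far above them. The F6 mutants were high there too, at 516 and 368 CPM for WBGene00014681, against 0.338 to 0.792 CPM in the F6 wild type. In sdc-3, a dosage compensation gene of the same run, the mutants gave 51.5, 94.1 and 89.1 CPM against 33.6, 44.9 and 47.5 CPM in wild type.

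The ribosomal RNA region at the end of chromosome I, from 15060299 to 15071033, held a run of 4, made of 3 ribosomal RNA genes and the pseudogene WBGene00004677. At rrn-3.1, a large-subunit ribosomal RNA gene, small RNAs stood at 809, 1138 and 1044 CPM in wild type and at 2590.0, 2165 and 2575 CPM in the mutants (log2 change 1.39 ± 0.22, SE, adjusted p = 0.00257). Every mutant library was higher. In the F6 libraries rrn-3.1 did not differ by the test (log2 fold change 0.12, adjusted p = 0.831), with 1206, 1216 and 724 CPM in wild type and 1279 and 1242 CPM in the mutants, though the difference between the 2 contrasts was itself not called (adjusted p = 0.44). The copies are nearly identical and reads of ribosomal RNA may be breakdown products, which these counts do not separate.

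The F6 comparison shares no library with the untreated one, although both were fitted together and share an estimate of spread. In the F6 comparison 841 features were called (7.73%), 441 higher (4.06%) and 400 lower (3.68%). Of the 450 features higher in untreated mutants, 441 (98.0%) were positive in the F6 comparison, against 51.1% of all features, and 253 were called higher there and 0 lower. The 253 are 57.4% of the F6 higher list. Of the 255 lower features 230 (90.2%) were negative there, against 48.9% of all, and 173 were called lower and 0 higher, 43.3% of the F6 lower list. Without mutant replicate 1, 340 of 346 and 255 of 269 kept the sign. The number of F6 calls fell to 186 without mutant F6 replicate 2, to 308 without mutant F6 replicate 3, and to 469 and 551 without wild-type F6 replicates 1 and 2.

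Some genes had similar values in both sets and others, such as rrn-3.1, F16A11.6 and WBGene00170296 above, did not. At ndx-2 the F6 libraries gave 514, 489 and 428 CPM in wild type and 5.46 and 9.05 CPM in the mutants. At fbxa-192 they gave 74.0, 90.9 and 95.3 CPM in wild type and 1343 and 1229.5 CPM in the mutants, with an F6 log2 fold change of 3.74. At rde-11 they gave 294, 337 and 359 CPM in wild type and 780.0 and 711 CPM in the mutants. Y71G12B.22 was the exception among the 24 largest changes, at -4.64 in the untreated and 0.87 in the F6 comparison, with 0, 10.9 and 11.5 CPM in F6 wild type. The test of the difference between the contrasts called 0 of 10873 features by edgeR (666 at an unadjusted p under 0.05, 46 called by DESeq2). The gfp transgene, the target of the exposure, was at 396, 152 and 702 CPM in F6 wild type and at 1508 and 1535 CPM in the F6 mutants (log2 fold change 1.73, adjusted p = 0.0278), and its difference between the contrasts was -1.48 (adjusted p = 0.768).

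Long-term meg-3;meg-4 mutants lack other granule proteins, were extracted with a column kit and were compared with their own wild type. The extraction and the genotype cannot be told apart between the 2 data sets, and no test was made across them. There 2759 of 10230 features were called (27.0%), 11.5% higher and 15.5% lower. Of the features lower in untreated pptr-1 mutants 225 of 254 tested (88.6%) were also negative in the meg mutants, against 49.4% of all features, and 171 were called lower and 5 higher. Of those higher in pptr-1, 290 of 427 (67.9%) were positive, against 50.6% of all features, and 129 were called higher and 31 lower. At rde-11 and sid-1 the log2 fold changes in the meg mutants were 4.73 and 4.19, against 1.01 and 0.61 in pptr-1.

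Opposite calls of at least 2-fold in both data sets were found at 24 features, examined after their values were seen. B0261.8, 17.6-fold higher in pptr-1, went from 271 ± 44.8 to 26.7 ± 8.29 CPM (SD, n = 3 each) in the meg mutants (log2 fold change -3.03, adjusted p = 2.82e-05). The snoRNA gene C17H12.36 was the only one of the 24 lower in pptr-1, and stood at 261.7 ± 77.2 CPM in column-kit wild type and 764 ± 189 CPM in the meg mutants (SD, n = 3 each). The calpain-family gene clp-6 was at 1.61 in pptr-1 and at -1.85 in the meg mutants. Many of the 24 were near the detection limit in the meg mutants, 1 of whose libraries held 126214 feature counts, and their sizes there are imprecise.

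**Figure D5:**
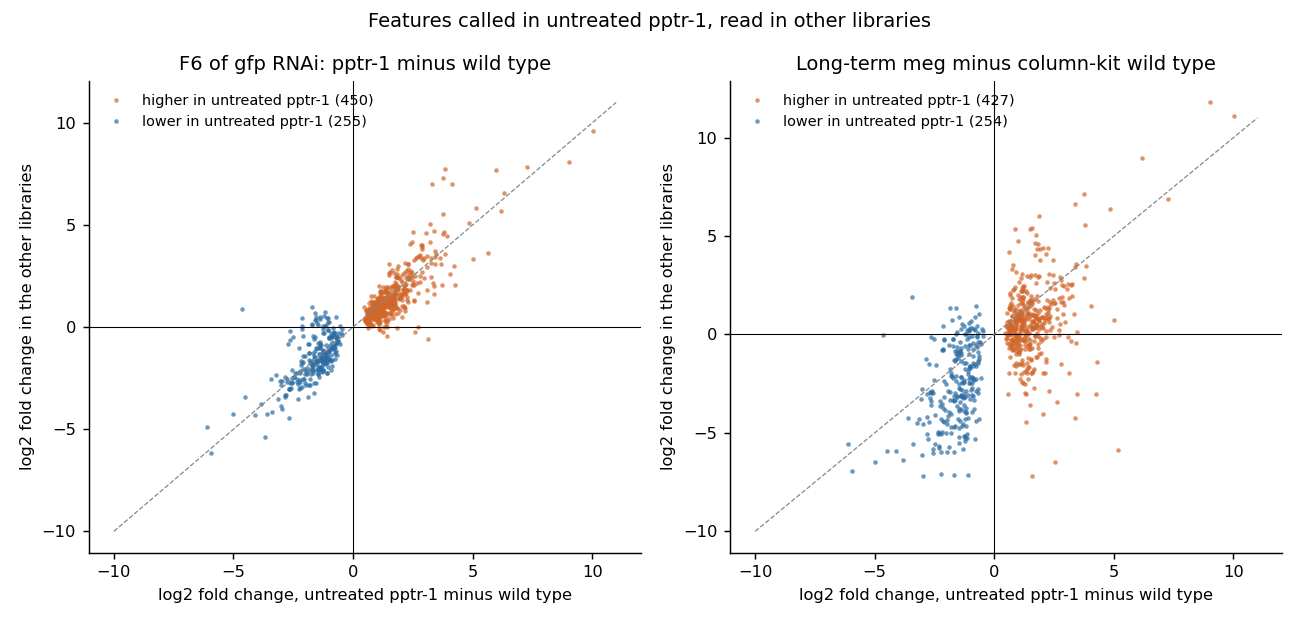
Log2 fold changes of features called in untreated pptr-1 (orange higher, blue lower) against the F6 comparison of the same genotypes (left) and the long-term meg mutants (right), with a dashed line of equal change. On the left 98.0% of the higher features are above 0, on the right 67.9%.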

How the data were processed

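Small RNA libraries of dissected gonads were compared as counts per annotated feature. The counts are the authors' deposited values, 1 table per library; per the submitters' processing notes the tools were cutadapt, FastQC, HTSeq and DESeq2 and the build was ce11, while the strand setting and the treatment of multiply mapping reads are not given in the sources used here. Tallies of unassigned reads were left out of library sizes. Symbols, types and positions came from Ensembl release 115 (WBcel235), which lacked 175 of 46779 features. CPM were computed from the deposited counts.

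Testing was limited to the 10873 features that reached 10 counts in 3 or more of the 11 TRIZOL libraries. One edgeR 4.0.16 quasi-likelihood model (R 4.3.3, TMM scaling) held the 4 groups of that extraction, and the column-kit groups were fitted separately (10230 features). The log2 CPM for the principal components used a prior count of 2, which was not set for the fold changes. The code was checked on simulated counts (10585 features). Of the features changed by 2 on the log2 scale 97 of 100 were recovered, and of those changed by 1, 26 of 100, with 8 false calls. The simulation used a single fixed dispersion, no library effects and changes only at features with higher counts. It therefore does not measure recovery or false calls in the real libraries. Alternatives were other scalings, no filter or a higher one, DESeq2 1.42.0, a replicate block, the 6 untreated libraries alone, and each library left out.

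Named features were pptr-1 and the transgene parts; among called features without overlap and with a mean of at least 5 CPM in 1 genotype, the 12 largest changes per direction; the 5 most abundant per direction; and at most 5 called members per list and direction. Other features were named after their values were seen. The members and lists were chosen with earlier results of these data known. The depth of 6451205 to 12663545 feature counts sets a floor (3 counts) of 0.237 to 0.465 CPM, for counting error only.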

Additional observations from a re-analysis of the deposited data

How the results depend on the processing

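Of 705 features called in untreated mutants, 664 were also called with relative log expression scaling (686 in all), 606 with total-count scaling (657), 490 with the 6 untreated libraries alone (548) and 700 with DESeq2 (1068). Without the filter on low counts 1377 of 23181 were called, and with each library left out 425 to 615. For the F6 comparison the counts were 1285 with DESeq2, 1688 without the filter and 186 to 618 with a library left out. The difference between the contrasts gave 0 calls with edgeR, 46 with DESeq2 and 235 without the filter. The cause was not tested. For each feature the deviation of each untreated library's log2 CPM from the mean of its genotype was taken. Across features, these deviations correlated between same-numbered libraries at 0.274 (replicate 1) and 0.346 (replicate 5). These were the highest of the 9 pairs of a wild-type and a mutant library (the others from -0.361 to 0.107). The deviations sum to 0 within a genotype, so the pairs are not independent. The labels do not say what the numbers mark and 2 pairs are too few to tell, so a shared batch was neither assumed nor excluded. With the replicate number as a block 660 untreated features were called, 489 of them among the 705, and 1145 in the F6 comparison. The block gave 3 lower piRNA features (from 8), 4 lower pseudogenes (from 10), 2 lower ribosomal protein genes (from 4) and 1 higher microRNA feature (from 2). It gave 2 lower features on chromosome X (from 5), 5 higher bath genes (from 9), 1 lower Argonaute gene (from 0) and 1 higher epidermis gene (from 0). Named features that lost their edgeR call with the block were F09A5.3 (adjusted p = 0.0520), F41C3.8 (0.118), C09G5.7 (0.140), Y71G12B.22 (0.0991) and rde-2 (0.127). So did rps-8 (0.139), rps-21 (0.0642), rps-24 (0.0918), his-60 (0.0520) and his-64 (0.0845). The calls of 21ur-503, 21ur-9204, 21ur-11046 and cel-mir-5592-1 were lost as well (adjusted p 0.0520 to 0.122). Without the 10 most abundant features of each library the difference in share was 0.533 percentage points for non-coding RNA (from 2.68) and 0.942 for long intergenic RNA (from 0.464). Over 776 alternatives for the 60 called named features, 646 kept direction and call and 130 lost the call, with 0 changes of sign. The 5 named features that were not called gained no call in 64 alternatives, and the sign of 3 of them (tbb-2, WBGene00001932 and WBGene00001940) changed in 8. With the filter on low counts 91 of 15363 piRNA and 11 of 258 microRNA features could be tested, and why so few passed was not tested.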
